A study of Mus musculus with 12 samples.

Results

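The 34 genes described here carry out or control cholesterol synthesis, uptake and efflux in B16 cells, a mouse melanoma line. They were chosen by gene symbol and found through their Ensembl identifiers, and all 34 were found among the 56093 rows of the count table. The choice was made with earlier results of these data known. Counts of members beside all-gene shares therefore describe the members and do not test them. Of these, 7 encode enzymes of the mevalonate and isoprenoid steps, 12 enzymes from squalene to cholesterol, 5 proteins of sterol sensing, 5 proteins of uptake and lysosomal or intracellular transport, and 5 proteins of efflux and esterification. RNA was sequenced from 4 groups of 3 libraries. The groups were control cells with a hairpin against RFP (shRFP), cells with a hairpin against Sdc1, the cell-surface proteoglycan syndecan 1 (shSdc1), and each of these after 24 h of interferon gamma (IFNγ) at 10 ng/ml. All 4 groups came from the B16 line grown in DMEM with fetal bovine serum, and all carried a hairpin. The labels speak of transfected cells, and the sources used here give neither the number of hairpins per target nor the use of clones. Whether the 3 libraries in a group stem from 3 cultures is not stated either, so p-values here reflect only how these libraries scatter, and that scatter could be technical.

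Cells make cholesterol from acetyl-CoA through mevalonate, isoprenoid units, squalene and lanosterol. When membranes of the endoplasmic reticulum run low in sterol, the escort protein SCAP carries the SREBP transcription factors to the Golgi for cleavage, and the released factors switch on genes of synthesis and uptake. INSIG proteins hold SCAP back when sterol is plentiful. LXR receptors sense oxysterols, the oxidized forms of cholesterol, and switch on export genes. SREBP factors are known to bind promoters together with the factor NF-Y, which recognizes a CCAAT box. Interferons are known to alter sterol synthesis in immune cells.

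Promoter sequences were examined because most members moved together with IFNγ. RefSeq promoter entries (build GRCm38.p6) matched 28 of the 34 members with 37 start sites, and the 250 bases before each start were searched on both strands. Stard4, Fdps, Abcg1, Sqle, Fdft1 and Npc1 were not matched. The NF-Y box CCAAT stood in 24 of the 37 windows (64.9%) and in 33.8% of all 32851 windows. It was found for 23 of the 28 members, and no share per gene over all genes was computed. Members with the box included Pmvk, Lbr, Insig2, Srebf1, Lipa and Soat1, which did not pass with IFNγ in shRFP cells. Abca1, Acat2, Nr1h2 and Scap had no box and rose with IFNγ in both cell types. Whether the box goes with the change was not tested. The SRE-like letters TCACNCCAC stood in 1 member window (2.7%, against 1.05% of all windows), that of Hmgcs1. The E-box CACGTG stood in 6 member windows (16.2%, against 6.02%). The interferon-related letters TTCNNNGAA, a GAS pattern, stood in 1 member window (2.7%, against 7.02%), and the IRF core, GAAA, any 2 bases and GAAA again, also in 1 (2.7%, against 2.98%). Both of the latter matches were in the window of Ebp. A match is a run of letters and not a measured binding site.

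Windows of 4 genes are shown, each 5′ to 3′ on the strand of its gene and ending at the base before the RefSeq start. Capitals mark the NF-Y box (CCAAT, or ATTGG on the other strand) and the SRE-like match, and the marked runs do not overlap. Hmgcs1 is shown for its SRE-like match TCACCCCAC, which begins 137 bases before the start, with 3 NF-Y boxes. Mvk is shown for its 5 NF-Y boxes, Hsd17b7 as the member that rose with knockdown in both states, and Acat2 as an enzyme gene that rose with IFNγ without a match.
Hmgcs1, chr13:119690101-119690350, plus strand: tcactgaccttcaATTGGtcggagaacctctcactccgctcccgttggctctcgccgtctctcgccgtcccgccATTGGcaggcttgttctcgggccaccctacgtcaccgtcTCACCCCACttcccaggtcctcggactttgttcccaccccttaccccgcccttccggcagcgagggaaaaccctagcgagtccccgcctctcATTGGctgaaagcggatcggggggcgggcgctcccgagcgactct
Mvk, chr5:114444019-114444268, plus strand: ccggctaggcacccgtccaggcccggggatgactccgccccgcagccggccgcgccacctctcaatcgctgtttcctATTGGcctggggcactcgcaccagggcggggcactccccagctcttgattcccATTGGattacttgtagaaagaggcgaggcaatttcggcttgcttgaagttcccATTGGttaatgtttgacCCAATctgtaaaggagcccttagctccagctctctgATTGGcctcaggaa
Hsd17b7, chr1:169969206-169969455, minus strand: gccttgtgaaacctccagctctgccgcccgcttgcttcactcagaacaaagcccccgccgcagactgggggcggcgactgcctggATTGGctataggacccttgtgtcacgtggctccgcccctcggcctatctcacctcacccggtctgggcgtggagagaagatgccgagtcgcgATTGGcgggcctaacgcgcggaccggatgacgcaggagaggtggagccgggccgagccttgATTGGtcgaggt
Acat2, chr17:12960726-12960975, minus strand: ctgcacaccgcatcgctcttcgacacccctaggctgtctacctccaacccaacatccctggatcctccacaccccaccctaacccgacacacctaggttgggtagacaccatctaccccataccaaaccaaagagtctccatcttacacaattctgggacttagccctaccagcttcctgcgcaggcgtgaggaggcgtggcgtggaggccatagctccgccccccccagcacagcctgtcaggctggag

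Libraries held 14337771 to 21548940 counts. Sdc1 itself was at 73.9 to 76.4 CPM (counts scaled to library size with TMM factors) in shRFP and 22.1 to 25.7 CPM in shSdc1, and at 79.6 to 102.7 and 25.1 to 27.0 CPM with IFNγ. The 7 melanocyte markers had counts in every library, and their summed level was 17245 to 17292 CPM in shRFP, 12940 to 13369 in shSdc1, 16614 to 18170 in shRFP with IFNγ and 11747 to 13170 in shSdc1 with IFNγ. The summed level of 8 leukocyte markers was 2.49 to 3.38, 8.50 to 8.92, 5.73 to 8.38 and 15.8 to 16.6 CPM in the same order of groups, most of it from Cd68. Cd3e and Adgre1 were at 0 in all 12 libraries, and Ptprc, Itgam and Csf1r did not exceed 0.0666 CPM. The summed level of 3 fibroblast markers, Pdgfra, Dcn and Lum, was 2.96 to 3.74, 3.10 to 4.09, 2.12 to 2.99 and 1.80 to 2.84 CPM in that order of groups. Of these Dcn was at 0. Epcam of epithelium was at 0 too, and Pecam1 of endothelium did not exceed 0.429 CPM. A single gene without a symbol took up 4.79% of shSdc1 replicate 3 and 0.0842 to 0.195% of every other library, and results that rest on this library are given without it below.

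Per length of exon, the members spanned a wide range. By mean RPKM (CPM per kilobase of exon) over the 12 libraries, the highest were 63.8 for Srebf2, 61.5 for Cyp51, 48.3 for Insig1, 46.2 for Npc2 and 42.9 for Acat2. The lowest tested members were Abca1 at 2.91, Tm7sf2 at 1.89 and Fdps at 1.67 RPKM. Abcg1, a sterol exporter, had 1 count in all 12 libraries together, and Nr1h3, which encodes LXR alpha, had 0 to 9 counts a library. These 2 genes did not pass the filter on low counts and the other 32 entered the tests. Their coefficient of variation within a group ranged from 0.253 to 13.9% with a median of 3.69%, and Tm7sf2, one of the scarcest, held the highest value.

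Cholesterol genes rose with IFNγ and, to a smaller extent, fell with Sdc1 knockdown. With IFNγ, 25 of 32 members rose in shRFP cells and 0 fell (0 at an unadjusted p under 0.05, and 0 by DESeq2's Wald test), and 26 rose and 2 fell in shSdc1 cells. Their median log2 fold change was 0.43 in shRFP and 0.39 in shSdc1 cells, against -0.0058 and 0.0042 over all 14089 tested genes. With knockdown, 17 members fell and 1 rose without IFNγ (median -0.14, against 0 over all tested genes), and 20 fell and 2 rose with IFNγ (median -0.17, against 0.017). Over all tested genes, with IFNγ 17.2% rose and 14.4% fell in shRFP cells, and 17.5% rose and 13.0% fell in shSdc1 cells. With knockdown 14.6% of all tested genes fell and 14.0% rose without IFNγ, and 17.4% fell and 18.9% rose with it. All adjusted p-values are from edgeR's quasi-likelihood test with Benjamini-Hochberg adjustment over all tested genes at 0.05, two-sided, and errors of log2 fold changes are SEs. In RNA from whole cultures, fewer cells of a type and less RNA per cell cannot be told apart.

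Under upper-quartile scaling the split over all genes with IFNγ turned, from 2422 higher and 2024 lower to 1759 and 2811 in shRFP cells, and from 2469 and 1826 to 2047 and 2495 in shSdc1 cells, while 23 and 26 members rose and 0 and 2 fell. Without shSdc1 replicate 3, the 17 members lower with knockdown without IFNγ became 11, and the share of all tested genes called lower went from 14.6% to 11.5%. The melanocyte markers moved with the knockdown too: 7 of 7 were lower without IFNγ and 6 of 7 with it, and their part in the members' fall was not tested. The members together took 0.338 to 0.342% of counts in shRFP, 0.291 to 0.317% in shSdc1, 0.412 to 0.416% in shRFP with IFNγ and 0.372 to 0.379% in shSdc1 with IFNγ, so the 4 groups did not overlap. The 0.291% was shSdc1 replicate 3, whose total includes the single gene with 4.79% of its counts. Without this library the shSdc1 shares were 0.316 and 0.317%, still below the other groups.

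**Figure D1:**
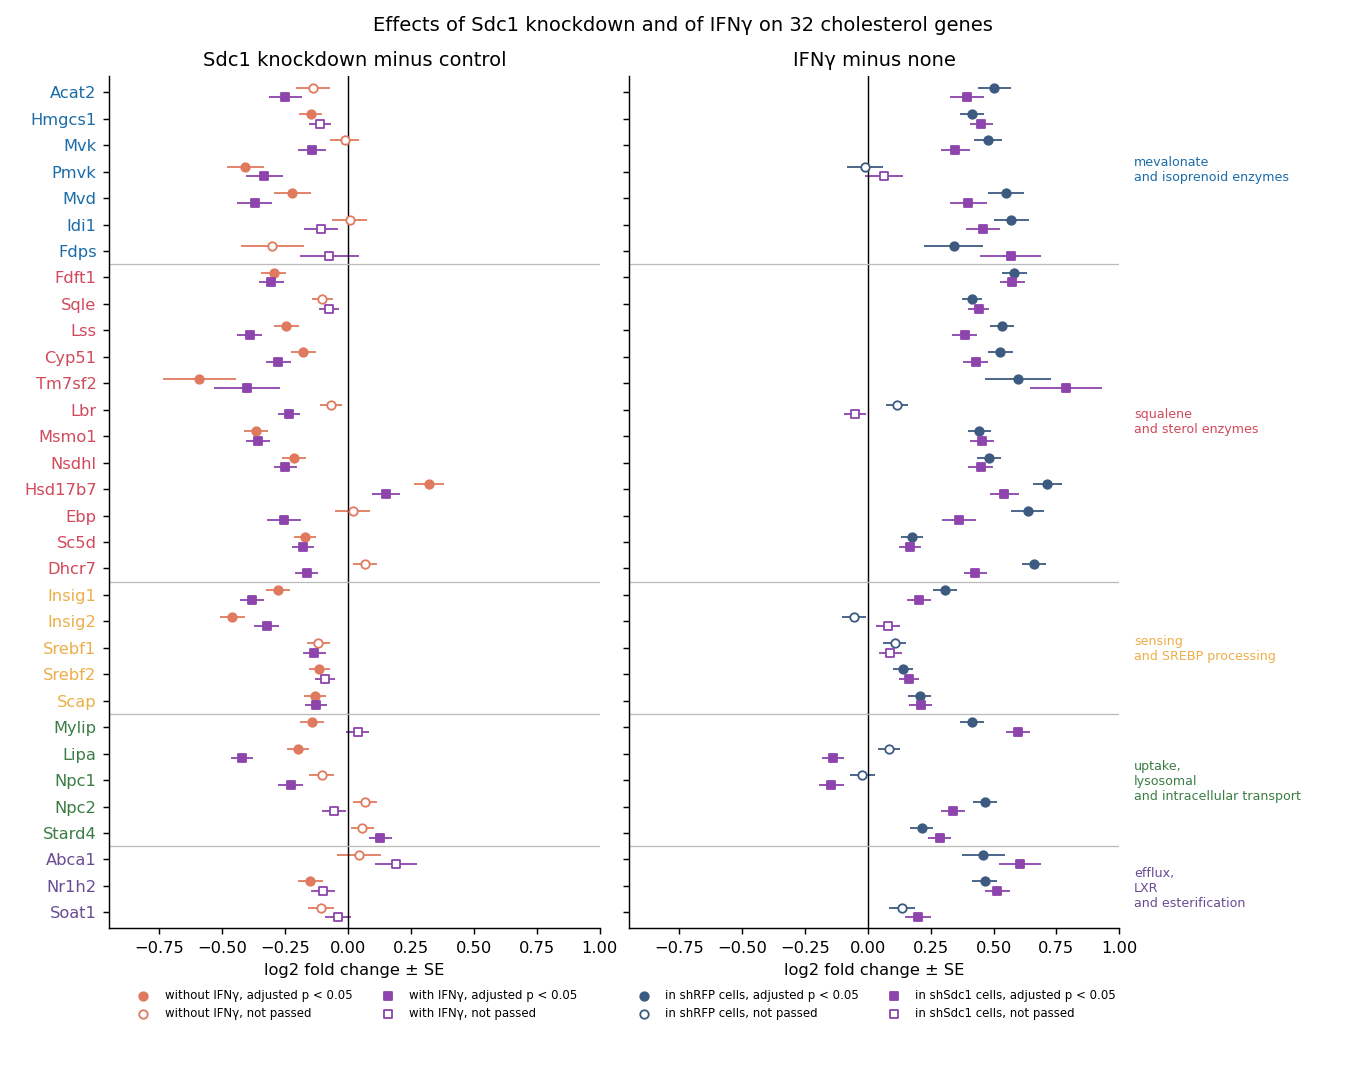
Log2 fold change ± SE of the 32 tested members for Sdc1 knockdown (left; circles without IFNγ, squares with it) and for IFNγ (right; circles in shRFP, squares in shSdc1 cells), ordered by role, with filled symbols for an adjusted p under 0.05. With IFNγ 25 and 26 members lie right of 0 with filled symbols, while with knockdown 17 and 20 lie left of it.

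The 7 mevalonate and isoprenoid enzymes turn acetyl-CoA into farnesyl pyrophosphate, the last intermediate shared with other isoprenoids. With IFNγ 6 of 7 rose in shRFP and 6 of 7 in shSdc1 cells, Pmvk being the exception in both (median 0.48 and 0.40). With knockdown 3 of 7 fell without IFNγ and 4 of 7 with it (median -0.15 and -0.14). Idi1 interconverts the 5-carbon isoprenoid units. Its level was 72.7, 61.2 and 63.3 CPM in shRFP, 61.2, 70.4 and 66.9 in shSdc1, 100.2, 89.5 and 104 in shRFP with IFNγ, and 92.3, 89.4 and 91.0 in shSdc1 with IFNγ. The 6 IFNγ libraries lay above the 6 others, and the shRFP and shSdc1 libraries overlapped. Idi1 rose by 0.57 ± 0.068 log2 units (adjusted p = 2.92e-06) in shRFP and by 0.46 ± 0.068 (adjusted p = 3.88e-05) in shSdc1 cells, and its knockdown values were 0.0061 ± 0.069 (adjusted p = 0.962) without IFNγ and -0.11 ± 0.067 (adjusted p = 0.232) with it.

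Mvd makes isopentenyl pyrophosphate from phosphorylated mevalonate. It was measured at 29.8, 28.9 and 31.2 CPM in shRFP, 23.6, 28.3 and 25.1 in shSdc1, 43.8, 46.5 and 41.0 in shRFP with IFNγ, and 35.3, 31.7 and 34.6 in shSdc1 with IFNγ. The libraries with IFNγ were higher, and within each state the 3 shSdc1 libraries lay below the 3 shRFP libraries. The IFNγ values were 0.55 ± 0.071 log2 units (adjusted p = 7.94e-06) in shRFP and 0.40 ± 0.073 (adjusted p = 0.000347) in shSdc1 cells, and the knockdown values -0.22 ± 0.074 (adjusted p = 0.0303) without IFNγ and -0.37 ± 0.070 (adjusted p = 0.000395) with it. Acat2, the cytosolic thiolase that starts the pathway, showed 103, 94.4 and 92.3 CPM in shRFP, 89.1, 91.0 and 83.0 in shSdc1, 124, 138 and 149 in shRFP with IFNγ, and 115, 123 and 107 in shSdc1 with IFNγ. Its groups with and without IFNγ did not overlap, and shSdc1 lay below shRFP in each state. The thiolase rose with IFNγ by 0.50 ± 0.066 log2 units (adjusted p = 9.74e-06) in shRFP and 0.39 ± 0.066 (adjusted p = 0.000153) in shSdc1 cells. With knockdown it fell with IFNγ present, with a change of -0.25 ± 0.066 log2 units (adjusted p = 0.00576), and did not pass without it, at -0.14 ± 0.067 (adjusted p = 0.132).

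Fdps, farnesyl pyrophosphate synthase, was scarce in these counts. Its libraries gave 6.84, 6.64 and 6.22 CPM in shRFP, 5.65, 4.94 and 5.44 in shSdc1, 8.86, 8.47 and 7.68 in shRFP with IFNγ, and 7.78, 8.51 and 7.46 in shSdc1 with IFNγ. The shSdc1 libraries were the lowest, and the groups with IFNγ overlapped each other. Fdps rose with IFNγ, by 0.34 ± 0.12 log2 units (adjusted p = 0.0348) in shRFP and 0.57 ± 0.12 (adjusted p = 0.00150) in shSdc1 cells, while its knockdown values, -0.30 ± 0.12 (adjusted p = 0.0799) and -0.075 ± 0.12 (adjusted p = 0.658), did not pass. Of the remaining enzymes, Hmgcs1 (HMG-CoA synthase) and Mvk (mevalonate kinase) rose with IFNγ in both cell types, by 0.41 ± 0.046 log2 units and 0.45 ± 0.046 and by 0.48 ± 0.056 and 0.35 ± 0.056. Hmgcs1 fell with knockdown without IFNγ (-0.15 ± 0.046 log2 units, adjusted p = 0.0216) and Mvk with it (-0.14 ± 0.055, adjusted p = 0.0481). Pmvk, phosphomevalonate kinase, fell with knockdown in both states, with a change of -0.41 ± 0.073 log2 units and -0.33 ± 0.073, with IFNγ values of -0.010 ± 0.071 (adjusted p = 0.929) and 0.065 ± 0.075 (adjusted p = 0.554).

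Counting of several of these genes is uncertain because near-identical sequences exist in the reference annotation. Acat2 matches Acat3 at 97.7% identity over 1477 bases, Fdps matches 4 processed pseudogenes at up to 98.9% and shares 26.7% of its exon bases with Gm43738, and Idi1 matches the pseudogene Gm13502 at 100% over 684 bases. Hmgcs1 shares 12.1% of its exon bases with an antisense gene, and the sources used here do not state the strand setting of the counting. The call of Mvd for knockdown without IFNγ ended under DESeq2's Wald test, and without shRFP replicate 1 or 3 or shSdc1 replicate 1 or 3 (adjusted p = 0.00974 to 0.158 over 20 alternatives). The call of Hmgcs1 for knockdown without IFNγ ended without shRFP replicate 2 or shSdc1 replicate 3 (adjusted p = 0.0114 to 0.129 over 20 alternatives). The call of Mvk for knockdown with IFNγ ended under upper-quartile scaling, DESeq2's Wald test, no filter on low counts, a filter of 1 CPM in 3 libraries or a fit of the compared groups alone, and without shSdc1 replicate 1, shRFP with IFNγ replicate 1 or 2 or shSdc1 with IFNγ replicate 2 or 3 (adjusted p = 0.0200 to 0.139 over 20 alternatives). The call of Fdps for IFNγ in shRFP cells ended under upper-quartile scaling, DESeq2's Wald test, no filter on low counts or a fit of the compared groups alone, and without shRFP replicate 1, 2 or 3 or shRFP with IFNγ replicate 1 or 2 (adjusted p = 0.0257 to 0.109 over 20 alternatives).

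The 12 enzymes from squalene to cholesterol moved largely together. With IFNγ 11 of 12 rose in shRFP and 11 of 12 in shSdc1 cells, Lbr being the exception in both (median 0.53 and 0.43). With knockdown 7 fell and 1 rose without IFNγ (median -0.18), and 10 fell and 1 rose with it (median -0.25). Tm7sf2, one of 2 sterol 14-reductases, had the largest knockdown change without IFNγ among the members. Its libraries gave 6.97, 7.30 and 8.98 CPM in shRFP, 5.22, 5.50 and 4.58 in shSdc1, 11.97, 9.91 and 13.1 in shRFP with IFNγ, and 8.38, 8.56 and 9.53 in shSdc1 with IFNγ. The 3 shSdc1 libraries without IFNγ were the lowest, and shSdc1 with IFNγ overlapped shRFP without it. Tm7sf2 fell with knockdown, with a change of -0.59 ± 0.14 log2 units (adjusted p = 0.00442) without IFNγ and -0.40 ± 0.13 (adjusted p = 0.0221) with it. It rose with IFNγ by 0.60 ± 0.13 log2 units (adjusted p = 0.00200) in shRFP and 0.79 ± 0.14 (adjusted p = 0.000324) in shSdc1 cells. Lbr, the other 14-reductase and also a nuclear envelope protein, differed: its IFNγ values were 0.11 ± 0.044 log2 units (adjusted p = 0.0552) and -0.051 ± 0.044 (adjusted p = 0.427), and it fell with knockdown with IFNγ present, with a change of -0.23 ± 0.044 (adjusted p = 0.000409), with -0.068 ± 0.044 (adjusted p = 0.279) without it.

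Hsd17b7, a sterol 3-ketoreductase, was the one member that rose with knockdown in both states. Its libraries held 38.1, 38.4 and 43.7 CPM in shRFP, 52.5, 47.9 and 49.6 in shSdc1, 64.4, 64.9 and 67.3 in shRFP with IFNγ, and 74.9, 72.9 and 70.6 in shSdc1 with IFNγ. The 4 groups did not overlap and stood in this ascending order. Knockdown raised Hsd17b7 by 0.32 ± 0.059 log2 units (adjusted p = 0.000360) without IFNγ and by 0.15 ± 0.056 (adjusted p = 0.0413) with it. IFNγ raised it by 0.71 ± 0.058 log2 units (adjusted p = 1.45e-08) in shRFP and 0.54 ± 0.057 (adjusted p = 4.96e-07) in shSdc1 cells. The call of Hsd17b7 for knockdown with IFNγ ended under DESeq2's Wald test, no filter on low counts or a fit of the compared groups alone, and without shRFP replicate 1 or 2, shSdc1 replicate 1, 2 or 3, shRFP with IFNγ replicate 1 or 2 or shSdc1 with IFNγ replicate 1, 2 or 3 (adjusted p = 0.0249 to 0.154 over 20 alternatives).

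Dhcr7, which reduces 7-dehydrocholesterol, and Ebp, the sterol isomerase, fell with knockdown when IFNγ was present. Dhcr7 gave 103, 99.8 and 104 CPM in shRFP, 112, 106 and 103 in shSdc1, 167, 165 and 152 in shRFP with IFNγ, and 142, 147 and 143 in shSdc1 with IFNγ. The shRFP and shSdc1 libraries overlapped without IFNγ, and the 3 shSdc1 libraries lay below the 3 shRFP libraries with it. Dhcr7 rose with IFNγ by 0.66 ± 0.047 log2 units (adjusted p = 1.94e-09) in shRFP and 0.43 ± 0.047 (adjusted p = 9.76e-07) in shSdc1 cells, and its knockdown values were 0.068 ± 0.048 (adjusted p = 0.322) without IFNγ and -0.17 ± 0.047 (adjusted p = 0.00952) with it. Ebp was at 53.7, 56.1 and 65.9 CPM in shRFP, 60.8, 58.6 and 57.8 in shSdc1, 92.0, 92.5 and 87.3 in shRFP with IFNγ, and 82.4, 73.2 and 72.0 in shSdc1 with IFNγ. Its groups without IFNγ overlapped, while those with IFNγ were apart. Ebp rose with IFNγ by 0.64 ± 0.067 log2 units (adjusted p = 5.79e-07) and 0.36 ± 0.067 (adjusted p = 0.000402), and its knockdown values were 0.018 ± 0.068 (adjusted p = 0.883) and -0.25 ± 0.066 (adjusted p = 0.00537).

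The other sterol enzymes were Fdft1 (squalene synthase), Sqle (squalene epoxidase), Lss (lanosterol synthase), Cyp51 (lanosterol 14-demethylase), Msmo1 and Nsdhl (which remove the C4 methyl groups) and Sc5d (a sterol desaturase). All 7 rose with IFNγ in both cell types, from 0.17 ± 0.044 log2 units for Sc5d to 0.58 ± 0.048 for Fdft1 in shRFP cells. All but Sqle fell with knockdown in both states. The falls of Msmo1 were -0.37 ± 0.047 log2 units (adjusted p = 7.77e-06) and -0.36 ± 0.047 (adjusted p = 7.40e-06), those of Fdft1 -0.30 ± 0.049 (adjusted p = 0.000137) and -0.30 ± 0.048 (adjusted p = 5.91e-05), and those of Lss -0.24 ± 0.050 (adjusted p = 0.000996) and -0.39 ± 0.049 (adjusted p = 4.41e-06). Sqle, which oxidizes squalene at a step known to limit flux, gave -0.10 ± 0.041 log2 units (adjusted p = 0.0734) and -0.076 ± 0.041 (adjusted p = 0.163) with knockdown. Tm7sf2 shares 12.1% of its exon bases with Vps51 on the same strand, Fdft1 18.3% with Ctsb on the opposite strand and Lbr 9.24% with Dnah14 on the opposite strand. Fdft1 also matches the processed pseudogene Gm6781 at 97.4% identity over 1249 bases, so its counting is uncertain too. The call of Tm7sf2 for knockdown with IFNγ ended without shRFP with IFNγ replicate 1 or 3 or shSdc1 with IFNγ replicate 1 or 2 (adjusted p = 0.00631 to 0.0903 over 20 alternatives). The call of Cyp51 for knockdown without IFNγ ended without shRFP replicate 2 or shSdc1 replicate 3 (adjusted p = 0.00193 to 0.0773 over 20 alternatives).

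Among the 5 genes of sensing and SREBP processing, the changes with IFNγ were smaller. With IFNγ 3 of 5 rose in each cell type (median 0.14 and 0.16), and with knockdown 4 of 5 fell in each state (median -0.13 and -0.13). Insig2, a retention protein of the endoplasmic reticulum, separated the libraries by hairpin. Its level was 66.6, 67.5 and 64.4 CPM in shRFP, 47.6, 48.0 and 48.8 in shSdc1, 64.6, 63.1 and 63.5 in shRFP with IFNγ, and 49.5, 49.7 and 53.6 in shSdc1 with IFNγ. All 6 shSdc1 libraries lay below all 6 shRFP libraries. Insig2 fell with knockdown, with a change of -0.46 ± 0.048 log2 units (adjusted p = 5.71e-07) without IFNγ and -0.32 ± 0.048 (adjusted p = 3.42e-05) with it, and its IFNγ values were -0.056 ± 0.047 (adjusted p = 0.403) in shRFP and 0.080 ± 0.049 (adjusted p = 0.241) in shSdc1 cells. Insig1, the retention protein whose gene is itself an SREBP target, gave 149, 142 and 157 CPM in shRFP, 127, 121 and 120.0 in shSdc1, 184, 189 and 179.9 in shRFP with IFNγ, and 146, 144 and 134 in shSdc1 with IFNγ. The shSdc1 group without IFNγ was the lowest, the shRFP group with IFNγ the highest, and the other groups overlapped. Knockdown lowered Insig1, with a change of -0.28 ± 0.048 log2 units (adjusted p = 0.000211) and -0.38 ± 0.048 (adjusted p = 4.44e-06), and IFNγ raised it by 0.31 ± 0.048 (adjusted p = 7.08e-05) and 0.20 ± 0.048 (adjusted p = 0.00343).

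Scap, the sterol-sensing escort, was at 101, 102 and 109.8 CPM in shRFP, 92.2, 94.6 and 98.0 in shSdc1, 121, 120.4 and 118 in shRFP with IFNγ, and 112, 109 and 108 in shSdc1 with IFNγ. Its range in shSdc1 with IFNγ overlapped that in shRFP without it, and the other groups were apart. Scap rose with IFNγ by 0.21 ± 0.045 log2 units (adjusted p = 0.00174) in shRFP and 0.21 ± 0.045 (adjusted p = 0.00147) in shSdc1 cells, and fell with knockdown, with a change of -0.13 ± 0.045 (adjusted p = 0.0356) and -0.13 ± 0.045 (adjusted p = 0.0330). Srebf2, whose product SREBP2 favours cholesterol genes, gave 432, 447 and 475 CPM in shRFP, 424, 413 and 413 in shSdc1, 516, 505 and 471 in shRFP with IFNγ, and 468, 463 and 469 in shSdc1 with IFNγ. The shSdc1 libraries without IFNγ were the lowest, and the shRFP range overlapped both groups with IFNγ, which were apart. Srebf2 rose with IFNγ by 0.14 ± 0.041 log2 units (adjusted p = 0.0134) and 0.16 ± 0.041 (adjusted p = 0.00487), and its knockdown values were -0.11 ± 0.041 (adjusted p = 0.0426) and -0.091 ± 0.041 (adjusted p = 0.0893). Srebf1, whose product favours fatty acid genes, had IFNγ values of 0.11 ± 0.046 log2 units (adjusted p = 0.0904) and 0.090 ± 0.047 (adjusted p = 0.164), and knockdown values of -0.12 ± 0.047 (adjusted p = 0.0675) without IFNγ and -0.13 ± 0.047 (adjusted p = 0.0300) with it. Scap shares 13.2% of its exon bases with a gene on the opposite strand. The call of Scap for knockdown without IFNγ ended under DESeq2's Wald test or no filter on low counts, and without shRFP replicate 3 or shSdc1 replicate 1 or 2 (adjusted p = 0.0310 to 0.170 over 20 alternatives). The call of Scap for knockdown with IFNγ ended under upper-quartile scaling or no filter on low counts, and without shRFP with IFNγ replicate 1 or shSdc1 with IFNγ replicate 2 or 3 (adjusted p = 0.0235 to 0.0872 over 20 alternatives). The call of Srebf2 for knockdown without IFNγ ended under DESeq2 size factors, upper-quartile scaling, DESeq2's Wald test or no filter on low counts, and without shRFP replicate 2 or 3, shSdc1 replicate 1, 2 or 3 or shSdc1 with IFNγ replicate 1, 2 or 3 (adjusted p = 0.0188 to 0.206 over 20 alternatives). The call of Srebf2 for IFNγ in shRFP cells ended under upper-quartile scaling or a fit of the compared groups alone, and without shRFP replicate 1 or shRFP with IFNγ replicate 1 (adjusted p = 0.00166 to 0.123 over 20 alternatives). The call of Srebf1 for knockdown with IFNγ ended under upper-quartile scaling or a fit of the compared groups alone, and without shRFP with IFNγ replicate 1 or 2 or shSdc1 with IFNγ replicate 1 or 2 (adjusted p = 0.00563 to 0.0946 over 20 alternatives).

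The 5 genes of uptake and transport did not move as one. With IFNγ 3 of 5 rose in shRFP cells, and 3 rose and 2 fell in shSdc1 cells. With knockdown 2 fell without IFNγ, and 2 fell and 1 rose with it. Mylip encodes a ubiquitin ligase, known as an LXR target, that marks lipoprotein receptors for degradation. It gave 55.1, 53.8 and 54.2 CPM in shRFP, 49.5, 49.7 and 48.4 in shSdc1, 70.7, 74.8 and 71.9 in shRFP with IFNγ, and 71.1, 76.8 and 75.4 in shSdc1 with IFNγ. The 6 IFNγ libraries were the highest and overlapped between hairpins, and shSdc1 lay just below shRFP without IFNγ. Mylip rose with IFNγ by 0.41 ± 0.047 log2 units (adjusted p = 1.49e-06) in shRFP and 0.60 ± 0.047 (adjusted p = 8.73e-09) in shSdc1 cells, and its knockdown values were -0.14 ± 0.048 (adjusted p = 0.0298) without IFNγ and 0.038 ± 0.046 (adjusted p = 0.556) with it. The call of Mylip for knockdown without IFNγ ended under DESeq2's Wald test or no filter on low counts, and without shRFP replicate 1, 2 or 3 or shSdc1 replicate 1, 2 or 3 (adjusted p = 0.0155 to 0.136 over 20 alternatives).

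Lipa and the 2 Npc genes handle cholesterol from lipoproteins in the lysosome. Lipa, the acid lipase that frees cholesterol from its esters, gave 159, 149 and 154 CPM in shRFP, 130.2, 138 and 134 in shSdc1, 165, 167 and 157 in shRFP with IFNγ, and 123, 119 and 124 in shSdc1 with IFNγ. The 3 libraries of shSdc1 with IFNγ were the lowest and those of shRFP overlapped across IFNγ. Lipa fell with knockdown, with a change of -0.20 ± 0.044 log2 units (adjusted p = 0.00190) without IFNγ and -0.42 ± 0.044 (adjusted p = 4.59e-07) with it. With IFNγ it had 0.083 ± 0.044 log2 units (adjusted p = 0.157) in shRFP cells and fell, with a change of -0.14 ± 0.044 (adjusted p = 0.0219) in shSdc1 cells. Npc1, the membrane transporter of the lysosome, had the same calls in shSdc1 cells with IFNγ, where it fell with knockdown, with a change of -0.23 ± 0.049 log2 units (adjusted p = 0.00134) and with IFNγ, with a change of -0.15 ± 0.049 (adjusted p = 0.0320). Its other values were -0.10 ± 0.049 log2 units (adjusted p = 0.122) for knockdown without IFNγ and -0.022 ± 0.049 (adjusted p = 0.771) for IFNγ in shRFP cells. The call of Lipa for IFNγ in shSdc1 cells ended without shSdc1 replicate 2 or shSdc1 with IFNγ replicate 1 or 2 (adjusted p = 0.00401 to 0.0978 over 20 alternatives). The call of Npc1 for IFNγ in shSdc1 cells ended under no filter on low counts, and without shSdc1 replicate 1 or 3 or shSdc1 with IFNγ replicate 1 or 2 (adjusted p = 0.00680 to 0.129 over 20 alternatives).

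Npc2, the soluble partner of Npc1, moved otherwise. It was at 209.9, 208 and 215 CPM in shRFP, 223, 224 and 217 in shSdc1, 279.7, 301 and 294 in shRFP with IFNγ, and 296, 286 and 258 in shSdc1 with IFNγ. The IFNγ libraries were higher in both cell types, and within IFNγ the hairpins overlapped. Npc2 rose with IFNγ by 0.46 ± 0.048 log2 units (adjusted p = 3.69e-07) and 0.34 ± 0.047 (adjusted p = 1.85e-05), and its knockdown values were 0.069 ± 0.048 (adjusted p = 0.313) and -0.055 ± 0.047 (adjusted p = 0.393). Stard4, a cytosolic sterol carrier, gave 84.0, 81.0 and 80.7 CPM in shRFP, 88.9, 85.2 and 81.7 in shSdc1, 93.7, 93.8 and 97.7 in shRFP with IFNγ, and 99.8, 107 and 105 in shSdc1 with IFNγ. The 2 groups without IFNγ overlapped and lay below both groups with it. Stard4 rose with IFNγ by 0.21 ± 0.047 log2 units (adjusted p = 0.00183) and 0.29 ± 0.047 (adjusted p = 0.000106), and its knockdown values were 0.057 ± 0.047 (adjusted p = 0.410) without IFNγ and 0.13 ± 0.046 (adjusted p = 0.0375) with it. The call of Stard4 for knockdown with IFNγ ended under DESeq2's Wald test, no filter on low counts or a fit of the compared groups alone, and without shRFP replicate 1 or 2, shSdc1 replicate 2 or 3, shRFP with IFNγ replicate 1 or 2 or shSdc1 with IFNγ replicate 2 or 3 (adjusted p = 0.0226 to 0.187 over 20 alternatives).

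Efflux and esterification were represented by 3 tested genes, since Abcg1 and Nr1h3 were too scarce. With IFNγ 2 of the 3 rose in shRFP and 3 of 3 in shSdc1 cells, and with knockdown 1 fell without IFNγ. Abca1, which exports cholesterol to apolipoproteins, gave 26.8, 23.2 and 22.4 CPM in shRFP, 23.8, 26.1 and 25.2 in shSdc1, 35.3, 30.3 and 34.5 in shRFP with IFNγ, and 40.3, 39.9 and 33.7 in shSdc1 with IFNγ. The IFNγ libraries lay above the others in each cell type, and the hairpins overlapped in each state. Abca1 rose with IFNγ by 0.46 ± 0.086 log2 units (adjusted p = 0.000447) in shRFP and 0.61 ± 0.084 (adjusted p = 1.85e-05) in shSdc1 cells, with knockdown values of 0.042 ± 0.088 (adjusted p = 0.773) and 0.19 ± 0.083 (adjusted p = 0.0824). Nr1h2 was at 76.4, 78.2 and 86.4 CPM in shRFP, 73.3, 70.7 and 73.0 in shSdc1, 108, 113 and 112 in shRFP with IFNγ, and 103, 105 and 101 in shSdc1 with IFNγ. All 4 groups were apart, highest in shRFP with IFNγ. Nr1h2 rose with IFNγ by 0.46 ± 0.049 log2 units (adjusted p = 5.37e-07) and 0.51 ± 0.049 (adjusted p = 1.39e-07), and its knockdown values were -0.15 ± 0.050 (adjusted p = 0.0296) and -0.10 ± 0.048 (adjusted p = 0.117). Soat1, which esterifies cholesterol for storage, gave 94.4, 94.3 and 87.2 CPM in shRFP, 88.7, 86.7 and 81.1 in shSdc1, 97.4, 103 and 102 in shRFP with IFNγ, and 98.0, 103 and 93.8 in shSdc1 with IFNγ. The hairpin groups overlapped in each state. Its IFNγ values were 0.13 ± 0.051 log2 units (adjusted p = 0.0525) in shRFP and 0.20 ± 0.051 (adjusted p = 0.00588) in shSdc1 cells, and its knockdown values -0.11 ± 0.051 (adjusted p = 0.136) and -0.041 ± 0.051 (adjusted p = 0.568). The call of Nr1h2 for knockdown without IFNγ ended under DESeq2's Wald test or no filter on low counts, and without shRFP replicate 3 or shSdc1 replicate 1, 2 or 3 (adjusted p = 0.0185 to 0.171 over 20 alternatives).

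**Figure D2:**
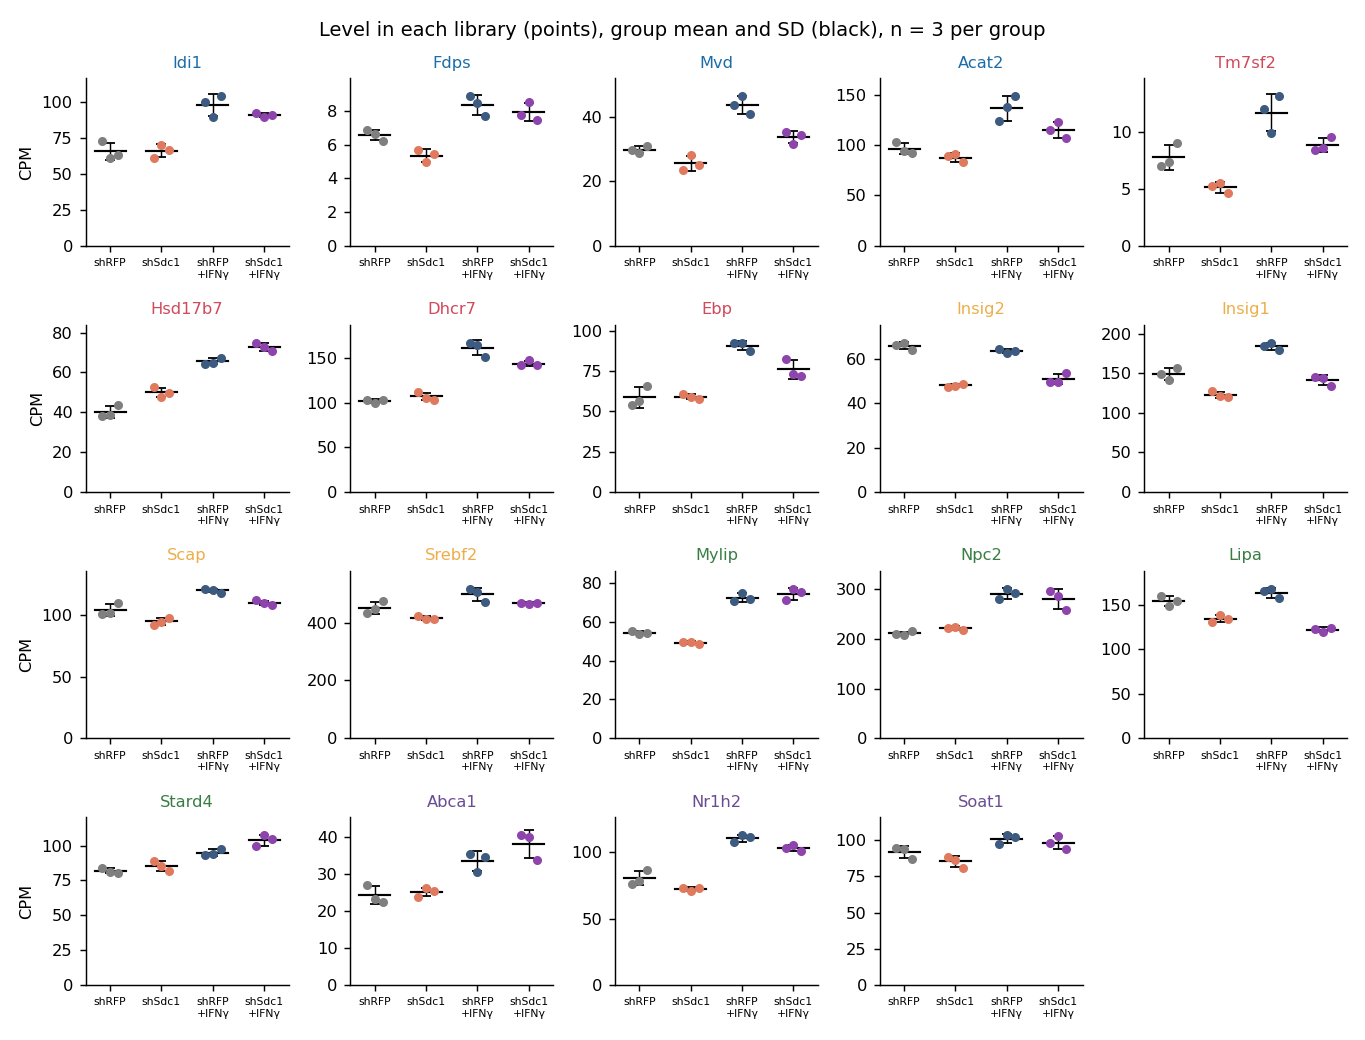
Level in TMM-scaled CPM of the 19 members given per library, one panel each and each y axis from 0, with points for the 12 libraries and black bars for the mean and SD of 3 libraries. Insig2 is low in both shSdc1 groups, Hsd17b7 steps up over the groups, and Lipa is lowest in shSdc1 with IFNγ.

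Knockdown and IFNγ were then set against each other gene by gene. IFNγ raised 25 of 32 members in both cell types, 17 of them among the 19 synthesis enzymes, and knockdown lowered 13 in both states, 9 of them enzymes, against 10.0% and 8.51% of all tested genes. Both held for 10 members, which fell with knockdown in both states and rose with IFNγ in both cell types, as did 0.958% of all tested genes. These were the enzymes Mvd, Fdft1, Lss, Cyp51, Tm7sf2, Msmo1, Nsdhl and Sc5d and the regulators Insig1 and Scap. Insig2 and Pmvk fell with knockdown in both states and did not pass with IFNγ in either cell type. Hsd17b7 alone rose with knockdown in both states and with IFNγ in both cell types. In cells without IFNγ 14 members fell with knockdown and rose with IFNγ in shRFP cells, 9 of them enzymes, against 2.08% of all tested genes. With IFNγ present 14 members fell with knockdown and rose with IFNγ in shSdc1 cells, 12 of them enzymes, against 1.94% of all tested genes. The comparisons share groups: knockdown without IFNγ and IFNγ in shRFP cells both subtract the shRFP libraries, and knockdown with IFNγ and IFNγ in shSdc1 cells both start from the shSdc1 libraries with IFNγ.

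**Figure D3:**
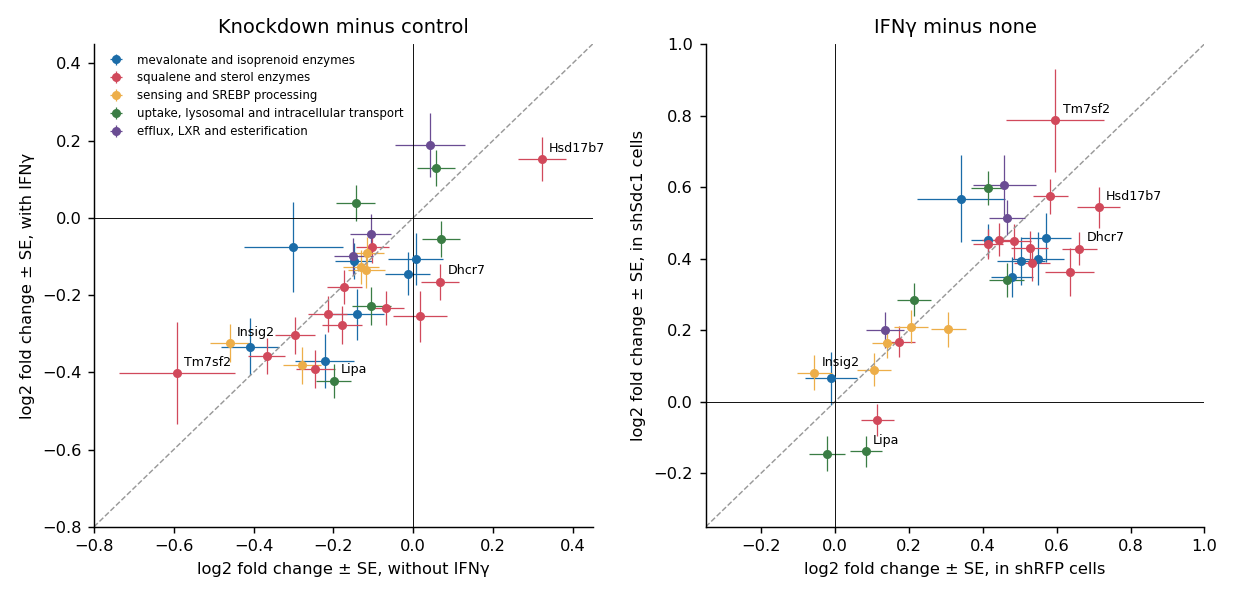
Each tested member's log2 fold change ± SE for knockdown with IFNγ against without (left) and for IFNγ in shSdc1 against shRFP cells (right), coloured by role, with the line of equality dashed. Hsd17b7 lies farthest to the right in the left panel, and Lipa and Dhcr7 lie below the line in both.

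A direct comparison of shRFP with IFNγ and shSdc1 without it gives the IFNγ effect minus the knockdown effect, without the shared shRFP libraries. In this comparison 31 of 32 members were higher in shRFP with IFNγ and 0 lower (0 at an unadjusted p under 0.05, and 0 by DESeq2's Wald test). Their median was 0.54 against -0.0042 over all tested genes, of which 21.4% were higher and 18.2% lower. A member can pass here through either effect alone, so a pass does not show that the effects were opposed. Pmvk and Insig2 passed with IFNγ values of -0.010 (adjusted p = 0.929) and -0.056 (adjusted p = 0.403) in shRFP cells. Idi1 passed with a knockdown value of 0.0061 (adjusted p = 0.962) without IFNγ, and Hsd17b7 passed though knockdown raised it. All 19 synthesis enzymes were higher, from 0.18 ± 0.044 log2 units for Lbr to 1.19 ± 0.14 for Tm7sf2. All 5 sensing genes were higher too, from 0.22 ± 0.047 log2 units for Srebf1 to 0.58 ± 0.048 for Insig1. Npc1 did not pass, at 0.083 ± 0.049 log2 units (adjusted p = 0.196). The sterol enzymes Fdft1 and Msmo1 differed by 0.88 ± 0.049 log2 units (adjusted p = 3.49e-11) and 0.81 ± 0.047 (adjusted p = 7.12e-11). Under upper-quartile scaling the split over all genes turned from 3019 higher and 2563 lower to 2331 and 3357, and 30 members were higher and 0 lower. The call of Stard4 for IFNγ against knockdown ended under upper-quartile scaling, and without shSdc1 replicate 3 (adjusted p = 0.00879 to 0.0906 over 20 alternatives).

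Cells with both Sdc1 knockdown and IFNγ were set against cells with neither, which carried the control hairpin. In shSdc1 with IFNγ against shRFP without it, 17 of 32 members were higher, 5 lower and 10 did not pass, with a median of 0.24 against -0.0038 over all tested genes, of which 23.7% were higher and 21.6% lower. Of the 19 enzymes 12 were higher and 2 lower, while of the 5 sensing genes 1 was lower and 4 did not pass. Of the 10 members that fell with knockdown and rose with IFNγ throughout, 4 enzymes were higher than in shRFP: Cyp51 (0.25 ± 0.049 log2 units, adjusted p = 0.000362), Fdft1 (0.28 ± 0.048, adjusted p = 0.000102), Lss (0.14 ± 0.049, adjusted p = 0.0257) and Nsdhl (0.23 ± 0.048, adjusted p = 0.000493). The other 6, Mvd (0.18 ± 0.072 log2 units, adjusted p = 0.0503), Msmo1 (0.086 ± 0.047, adjusted p = 0.149), Sc5d (-0.0058 ± 0.044, adjusted p = 0.930), Tm7sf2 (0.19 ± 0.13, adjusted p = 0.259), Insig1 (-0.076 ± 0.048, adjusted p = 0.214) and Scap (0.079 ± 0.045, adjusted p = 0.168), did not pass.

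The 5 members that were lower with both than with neither were Pmvk (-0.34 ± 0.072 log2 units, adjusted p = 0.000661), Insig2 (-0.38 ± 0.048, adjusted p = 2.48e-06), Lipa (-0.34 ± 0.044, adjusted p = 3.43e-06), Npc1 (-0.25 ± 0.049, adjusted p = 0.000356) and Lbr (-0.12 ± 0.044, adjusted p = 0.0354). At the other end stood Hsd17b7, higher by 0.87 ± 0.058 log2 units (adjusted p = 3.31e-10), and Abca1, higher by 0.65 ± 0.084 (adjusted p = 3.54e-06). Among transport genes Mylip, Npc2 and Stard4 were higher by 0.45 ± 0.047 log2 units, 0.41 ± 0.047 and 0.34 ± 0.047. The call of Lss for both against neither ended under upper-quartile scaling or no filter on low counts, and without shRFP replicate 1 or shSdc1 with IFNγ replicate 1 or 3 (adjusted p = 0.0135 to 0.161 over 20 alternatives). The call of Lbr for both against neither ended under no filter on low counts, and without shRFP replicate 2 or 3 or shSdc1 with IFNγ replicate 1 (adjusted p = 0.00628 to 0.175 over 20 alternatives).

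**Figure D4:**
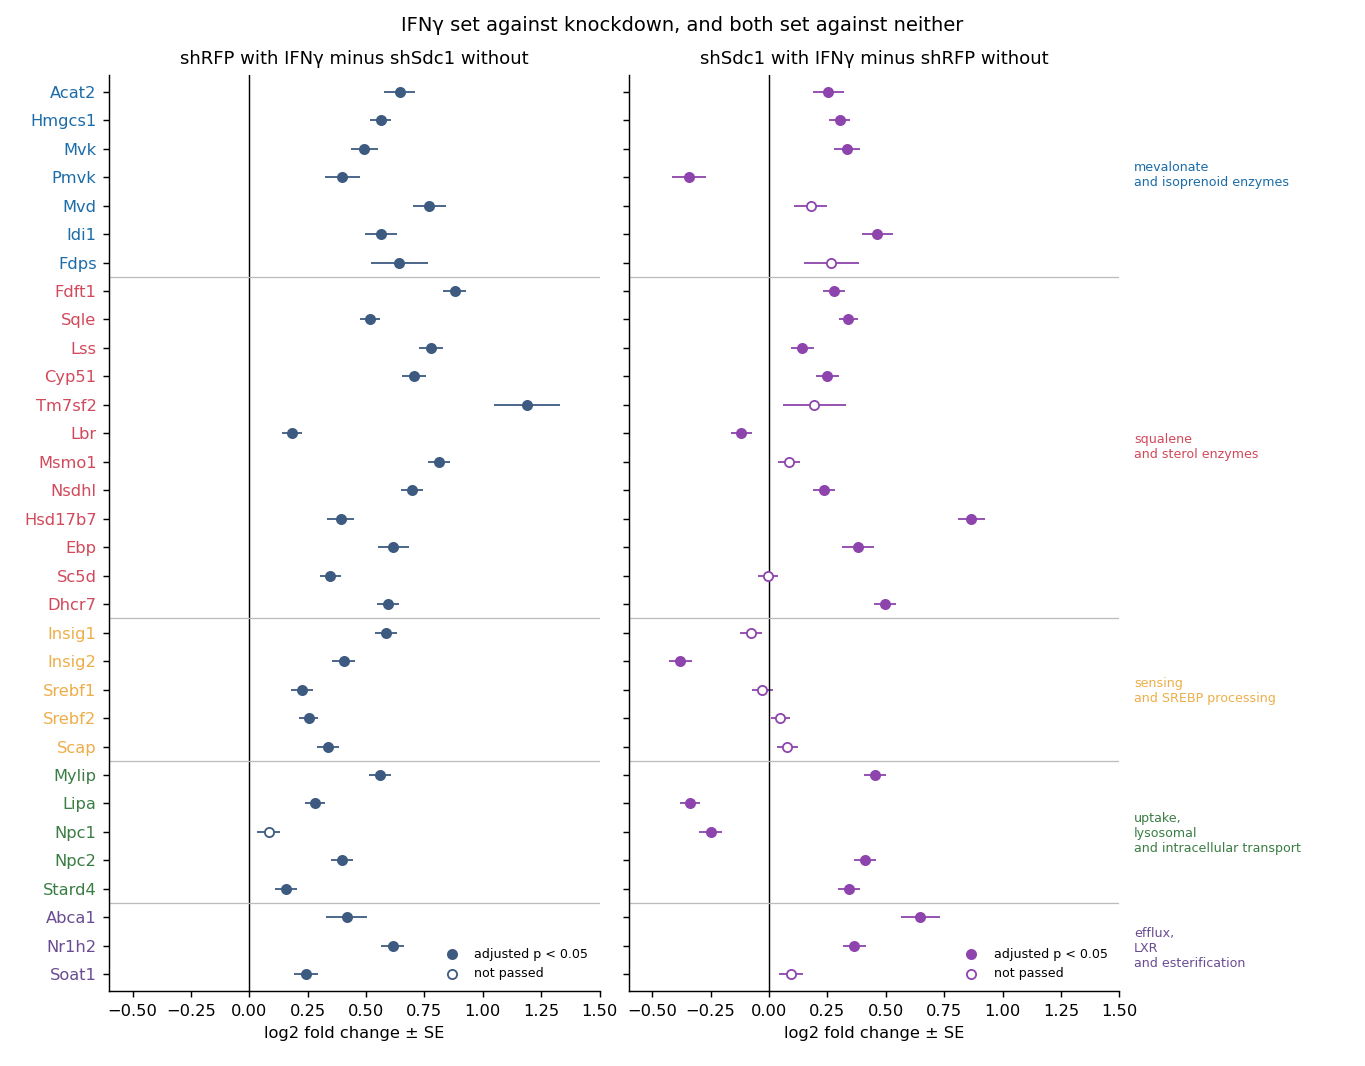
Log2 fold change ± SE of the 32 tested members for shRFP with IFNγ minus shSdc1 without (left) and for shSdc1 with IFNγ minus shRFP without (right), ordered by role, with filled symbols for an adjusted p under 0.05. On the left 31 members lie right of 0 with filled symbols, and on the right 17 do while Pmvk, Lbr, Insig2, Lipa and Npc1 lie left of it.

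The interaction test compared the knockdown effect with IFNγ and that without. Of 32 members 2 passed lower and 0 higher, near the 5.15% and 4.58% of all tested genes, so the count says nothing particular about these members. At an unadjusted p under 0.05 1 member was higher, and DESeq2's Wald test called 0 higher. The members' median was -0.013 against 0.023 over all genes. The 2 members were Dhcr7, at -0.23 ± 0.067 log2 units (adjusted p = 0.0344), and Lipa, at -0.22 ± 0.062 (adjusted p = 0.0299). Dhcr7 had 0.068 ± 0.048 log2 units with knockdown without IFNγ and -0.17 ± 0.047 with it, and Lipa fell, with a change of -0.20 ± 0.044 and -0.42 ± 0.044. Ebp, at -0.27 ± 0.095 log2 units (adjusted p = 0.0755), and Mylip, at 0.18 ± 0.066 (adjusted p = 0.0878), did not pass. The call of Dhcr7 in the interaction ended without shRFP replicate 1 or 2, shSdc1 replicate 1 or 2, shRFP with IFNγ replicate 1 or shSdc1 with IFNγ replicate 1, 2 or 3 (adjusted p = 0.00743 to 0.103 over 19 alternatives). The call of Lipa in the interaction ended without shRFP replicate 2, shSdc1 replicate 2, shRFP with IFNγ replicate 1 or shSdc1 with IFNγ replicate 1 or 2 (adjusted p = 0.0118 to 0.0835 over 19 alternatives).

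Other lists of the pathway were counted in the same way, and their counts stand beside the same all-gene shares: 17.2% rose and 14.4% fell with IFNγ in shRFP cells, 17.5% and 13.0% in shSdc1 cells, and with knockdown 14.0% rose and 14.6% fell without IFNγ and 18.9% and 17.4% with it. Of 10 further genes of SREBP processing and sterol-regulated degradation, 5 rose and 1 fell with IFNγ in shRFP cells, 4 rose in shSdc1 cells, and knockdown raised 1 and lowered 1 without IFNγ and raised 2 with it. Genes named from these lists are given in the comparison of their largest change, which need not be particular to 1 cell type or state. Rnf139 and Rnf145, ubiquitin ligases of the endoplasmic reticulum, rose with IFNγ in shSdc1 cells by 0.44 ± 0.068 log2 units (adjusted p = 5.73e-05) and 0.38 ± 0.047 (adjusted p = 3.81e-06). In shRFP cells they rose by 0.34 (adjusted p = 0.000852) and 0.33 (adjusted p = 2.06e-05). Erlin1, a lipid raft protein of that membrane, rose with knockdown by 0.34 ± 0.049 log2 units (adjusted p = 2.84e-05), and Mbtps2, the site-2 protease of SREBP cleavage, fell, with a change of -0.33 ± 0.078 (adjusted p = 0.00310), both without IFNγ. With IFNγ present the knockdown values were 0.24 (adjusted p = 8e-04) for Erlin1 and -0.14 (adjusted p = 0.196) for Mbtps2. Of 16 genes of fatty acid synthesis, the other arm of SREBP control, 11 rose in shRFP and 10 rose and 1 fell in shSdc1 cells with IFNγ (median 0.32 and 0.16). Knockdown lowered 3 of the 16 without IFNγ and 9 with it. Acacb, an acetyl-CoA carboxylase, rose with IFNγ by 1.02 ± 0.061 log2 units (adjusted p = 1.31e-10) in shSdc1 cells, and the desaturase gene Fads2 rose by 0.45 ± 0.042 (adjusted p = 9.84e-08) in shRFP cells. Acacb also rose by 0.99 (adjusted p = 2.66e-10) in shRFP cells, and Fads2 by 0.29 (adjusted p = 2.66e-05) in shSdc1 cells. Scd1, the stearoyl-CoA desaturase, fell with knockdown, with a change of -0.44 ± 0.036 log2 units (adjusted p = 2.31e-08) without IFNγ, and Lpin1, a phosphatidate phosphatase, with a change of -0.43 ± 0.082 (adjusted p = 0.000395) with it. Scd1 also fell with IFNγ present (-0.37, adjusted p = 1.66e-07), while Lpin1 did not pass without IFNγ (-0.20, adjusted p = 0.0766).

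Isoprenoid branches leave the pathway before squalene and feed protein prenylation and ubiquinone. The list counted here also held Acat1 and Idi2, which do not belong to these branches. Of 11 tested genes 1 rose and 1 fell with IFNγ in shRFP cells, and 2 fell in shSdc1 cells, Acat1 among them. Knockdown raised 5 without IFNγ, and raised 3 and lowered 2 with it. Fntb, a farnesyltransferase subunit, rose with IFNγ in shRFP cells by 0.43 ± 0.069 log2 units (adjusted p = 0.000113), and Pdss2, of ubiquinone synthesis, rose with knockdown without IFNγ by 0.33 ± 0.092 (adjusted p = 0.0119). In shSdc1 cells the IFNγ value of Fntb was -0.020 (adjusted p = 0.864). Knockdown raised Fntb without IFNγ (0.19, adjusted p = 0.0446), a call that ended under 13 of 20 alternatives, and lowered it with IFNγ (-0.25, adjusted p = 0.00767). Pdss2 did not pass for knockdown with IFNγ (0.21, adjusted p = 0.0806). With IFNγ present, knockdown lowered Acat1, the mitochondrial thiolase, with a change of -0.34 ± 0.045 log2 units (adjusted p = 8.17e-06) and raised Pggt1b, a subunit of a protein prenyltransferase, by 0.32 ± 0.095 (adjusted p = 0.0143). Without IFNγ neither passed, at -0.10 (adjusted p = 0.109) for Acat1 and 0.089 (adjusted p = 0.530) for Pggt1b. The call of Pdss2 for knockdown without IFNγ ended without shSdc1 replicate 2 (adjusted p = 0.0108 to 0.0548 over 20 alternatives). The call of Pggt1b for knockdown with IFNγ ended without shRFP with IFNγ replicate 2 or shSdc1 with IFNγ replicate 2 or 3 (adjusted p = 1.98e-05 to 0.0889 over 20 alternatives).

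Of 9 tested lipoprotein receptors and adaptors, 5 rose and 2 fell with IFNγ in shRFP cells and 4 rose and 3 fell in shSdc1 cells, while knockdown raised 4 and lowered 2 without IFNγ and raised 3 and lowered 1 with it. Lrp8, a lipoprotein receptor family member that binds reelin, rose with knockdown without IFNγ by 0.81 ± 0.073 log2 units (adjusted p = 8.58e-08). With IFNγ present its knockdown value was 0.21 (adjusted p = 0.0349), a call that ended under 5 of 20 alternatives. Scarb2, a lysosomal membrane protein, rose with IFNγ in shSdc1 cells by 0.69 ± 0.052 log2 units (adjusted p = 3.85e-09) and in shRFP cells by 0.43 (adjusted p = 3.94e-06). Sort1, a sorting receptor, fell with knockdown with IFNγ, with a change of -0.32 ± 0.038 log2 units (adjusted p = 1.91e-06), and Lrp6, a Wnt co-receptor, fell with IFNγ in shRFP cells, with a change of -0.32 ± 0.042 (adjusted p = 1.20e-05). Sort1 also fell with knockdown without IFNγ (-0.32, adjusted p = 2.71e-06), and Lrp6 with IFNγ in shSdc1 cells (-0.29, adjusted p = 2.44e-05). Of 16 other sterol transport genes, 3 rose and 1 fell with IFNγ in shRFP and 6 rose and 2 fell in shSdc1 cells, and knockdown raised 2 and lowered 2 without IFNγ and raised 3 and lowered 1 with it. In shRFP cells and with knockdown these counts were near or below the all-gene shares. Oxysterol-binding protein genes went both ways: with IFNγ present, knockdown lowered Osbpl1a, with a change of -0.69 ± 0.057 log2 units (adjusted p = 1.84e-08) and raised Osbpl5 by 0.43 ± 0.074 (adjusted p = 0.000166) and Osbpl8 by 0.34 ± 0.10 (adjusted p = 0.0128). Without IFNγ the knockdown values were -0.45 (adjusted p = 8.36e-06) for Osbpl1a, 0.39 (adjusted p = 0.000604) for Osbpl5 and 0.013 (adjusted p = 0.940) for Osbpl8. Tmem97, a sterol-regulated membrane protein, rose with IFNγ in shRFP cells by 0.42 ± 0.062 log2 units (adjusted p = 3.35e-05). In shSdc1 cells it rose by 0.21 (adjusted p = 0.0140), a call that ended under 2 of 20 alternatives. The call of Osbpl8 for knockdown with IFNγ ended without shRFP with IFNγ replicate 2 or shSdc1 with IFNγ replicate 2 (adjusted p = 7.23e-06 to 0.0662 over 20 alternatives).

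Of 7 tested efflux, LXR partner and oxysterol genes among 13 listed, 3 rose with IFNγ in shRFP cells, and 4 rose and 1 fell in shSdc1 cells. Knockdown raised 1 and lowered 3 without IFNγ, and raised 2 and lowered 3 with it. Pltp, the phospholipid transfer protein and a known LXR target, was at 14.1, 15.2 and 14.2 CPM in shRFP, 15.7, 14.3 and 14.7 in shSdc1, 38.7, 37.8 and 38.7 in shRFP with IFNγ, and 37.8, 41.5 and 40.2 in shSdc1 with IFNγ. The IFNγ libraries were above the others, and the hairpins overlapped in each state. Pltp rose with IFNγ by 1.40 ± 0.065 log2 units (adjusted p = 2.31e-12) and 1.42 ± 0.065 (adjusted p = 1.45e-12), more than any member did. Rxra, an LXR partner receptor, fell with knockdown with IFNγ, with a change of -0.62 ± 0.045 log2 units (adjusted p = 3.33e-09), and Lpcat3, a phospholipid-remodelling enzyme known as an LXR target, fell without IFNγ, with a change of -0.35 ± 0.051 (adjusted p = 3.36e-05). Rxra also fell with knockdown without IFNγ (-0.31, adjusted p = 2.76e-05), and Lpcat3 with IFNγ present (-0.30, adjusted p = 0.000147). Nceh1, a cholesteryl ester hydrolase, rose with IFNγ in shRFP cells by 0.45 ± 0.042 log2 units (adjusted p = 1.03e-07) and in shSdc1 cells by 0.38 (adjusted p = 8.55e-07).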

How the data were processed

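The authors deposited 1 table of raw counts per gene, whole numbers not normalized, for 12 libraries of 4 groups. Per the submitters' processing notes, the build was GRCm39 and the tools HTSeq, HISAT2 2.0.5 and Trimmomatic, with no roles given; the sources used here state neither the annotation nor the strand setting nor the step that made 677 assembled loci. Per the labels' protocols, total RNA went into paired-end mRNA libraries. Symbols and exon lengths came from GENCODE M21, which named 52083 of 56093 rows. Promoters came from RefSeq (GRCm38.p6); no count was tied to a coordinate.

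Counts were scaled by TMM and filtered by filterByExpr (minimum count 10, minimum total 15), which kept 14089 of 27472 genes with a count. In edgeR 4.0.16 (R 4.3.3), glmQLFit used all 12 libraries with a mean for each group. The fit left 8 residual degrees of freedom, and the common biological coefficient of variation was 0.0633. P-values were adjusted over all tested genes of each of 7 comparisons, with no fold minimum. The SE is the size of the log2 fold change over the square root of F. Levels are TMM-scaled CPM, and RPKM is CPM per kilobase of exon. Members were also searched with BLAST for other transcripts at 95% identity or more over at least 200 bases.

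The members and gene lists were chosen with earlier results of these data known, and lists were described by counts and medians with no set test. All 34 members are named. Levels per library are given for up to 4 members of each role with the largest change in the first 4 comparisons, among those with an adjusted p under 0.05 there and a mean of at least 5 CPM, and up to 4 genes of each other list were named by the same rule. The steps were tested on simulated data. There were 20 alternatives: DESeq2 size factors, upper-quartile scaling, the Wald test of DESeq2 1.42.0, no filter, at least 1 CPM in 3 libraries as the filter, only the groups compared in the fit, a block for replicate number, each library left out in turn, and, added after seeing the data, a fit without the assembled loci and the gene that held 4.79% of counts in shSdc1 replicate 3. Figures used matplotlib 3.10.9.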

Additional observations from a re-analysis of the deposited data

Results flagged for a closer look

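The knockdown effect differed with IFNγ, by the interaction test of edgeR, in 2 of 32 members and 5 of the 24 other pathway genes named, where 4.58% of all tested genes passed higher and 5.15% lower. Those 24 were named for their changes in the comparisons that make up this test. Among members, the knockdown effect with IFNγ minus that without was -0.23 ± 0.067 log2 units (adjusted p = 0.0344) for Dhcr7 and -0.22 ± 0.062 (adjusted p = 0.0299) for Lipa. The call of Dhcr7 in the interaction ended without shRFP replicate 1 or 2, shSdc1 replicate 1 or 2, shRFP with IFNγ replicate 1 or shSdc1 with IFNγ replicate 1, 2 or 3 (adjusted p = 0.00743 to 0.103 over 19 alternatives). The call of Lipa in the interaction ended without shRFP replicate 2, shSdc1 replicate 2, shRFP with IFNγ replicate 1 or shSdc1 with IFNγ replicate 1 or 2 (adjusted p = 0.0118 to 0.0835 over 19 alternatives). Among other pathway genes it was -0.61 ± 0.10 log2 units (adjusted p = 0.00149) for Lrp8, 0.26 ± 0.073 (adjusted p = 0.0314) for Scarb2, -0.31 ± 0.063 (adjusted p = 0.00468) for Rxra, -0.24 ± 0.064 (adjusted p = 0.0225) for Acat1 and -0.45 ± 0.098 (adjusted p = 0.00816) for Fntb. Lrp8 stood at 49.5, 44.7 and 51.8 CPM in shRFP, 89.2, 86.9 and 80.3 in shSdc1, 62.0, 55.4 and 53.7 in shRFP with IFNγ, and 66.1, 59.4 and 72.4 in shSdc1 with IFNγ. Without IFNγ its hairpin groups were apart, and with IFNγ they overlapped. The call of Scarb2 in the interaction ended without shRFP replicate 1 or 2, shSdc1 replicate 1, 2 or 3, shRFP with IFNγ replicate 1 or 2 or shSdc1 with IFNγ replicate 1, 2 or 3 (adjusted p = 0.00479 to 0.0964 over 19 alternatives). The call of Acat1 in the interaction ended without shRFP replicate 2, shSdc1 replicate 1 or 2 or shSdc1 with IFNγ replicate 2 (adjusted p = 0.00441 to 0.0672 over 19 alternatives).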

How the results depend on the processing

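Over the 7 comparisons, 126 of 148 member calls held under every alternative run, and 0 changed direction. The count of members lower with knockdown without IFNγ was 17 and ranged from 11 (without shSdc1 replicate 3) to 18 when 1 library was left out. Of all tested genes, 14.6% were lower in the main fit and 11.5% without shSdc1 replicate 3. Members higher with knockdown with IFNγ numbered 2, but 0 under DESeq2's Wald test, with no filter, in a fit of the compared groups alone and with the replicate block, and 0 to 2 when 1 library was left out. Members lower with IFNγ in shSdc1 cells numbered 2, but 1 with no filter and 0 to 2 when 1 library was left out. Members lower in the interaction numbered 2, but 0 with the replicate block and 0 to 3 when 1 library was left out. Over all tested genes the interaction called 645 higher and 726 lower, with the fewest, 373 and 416, without shSdc1 replicate 1. The higher count also moved by over 1.5 times without shRFP replicate 1 or 2, shRFP with IFNγ replicate 2 or shSdc1 with IFNγ replicate 2. So did the lower count without shRFP replicate 1 or 2 (456 and 443) or shSdc1 with IFNγ replicate 2 (439). The cause of these shifts was not tested. The labels do not state that replicate numbers pair the libraries. Deviations of same-numbered libraries from their group means correlated at -0.068 to 0.033 over 18 pairs, and a library correlated best with its own number in 10 of 36 cases. These values show no shared replicate effect and cannot show whether same-numbered libraries were prepared together. With the replicate block 8 member calls ended, beside the settings given in the report: Srebf2 and Scap for knockdown without IFNγ, Mvk, Hsd17b7, Scap and Stard4 for knockdown with it, and Dhcr7 and Lipa in the interaction. The counts of the other comparisons stayed within 1.5 times apart from those named. Where 1 library was left out, the remaining libraries of its group were assumed to vary like the other groups. Precision is limited by 3 libraries per group, by low counts for Fdps and Tm7sf2, and by sequence shared with pseudogenes or overlapping genes.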
